A study of Rattus norvegicus with 60 samples.

Results

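The regions described here are 3189 stretches of 500 nt in genes for voltage-gated ion channels, potassium channels and ionotropic glutamate and GABA-A receptors, in which methylated DNA was recovered from the CA1 area of the rat hippocampus. They were chosen by a rule on the genes' symbols and on the signal at 1 h. A bin belongs to the set when it overlaps such a gene, when its mean over the 10 captured libraries of 1 h is at least 1 RPKM (reads per kilobase, scaled to the mapped reads of the library), and when that mean is at least 2 times the mean of the 3 input libraries. Of 5805202 bins in all, 350378 met the 2 conditions on level, 145477 of them in other genes and 201712 outside genes. The symbols match 173 gene entries, of which 158 hold at least 1 such bin and 15 hold none. Capture over input at 1 h is therefore the criterion of choice and is given only as a description, while the values at 24 h and the mRNA levels were not used to choose the bins. The rule pools the groups of 1 h, but a bin near the minimum can have passed through 1 group alone, so differences between groups at 1 h are not independent of it in such bins.

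All animals were Sprague-Dawley rats of 90 to 120 d, without any genetic change named in the labels. The groups were threat, place and naive, and the study asked how DNA methylation and gene expression differ 1 h and 24 h after training in a context associated with threat. What the place and naive animals experienced is not described in the labels. At each time 3 threat, 4 place and 3 naive libraries of captured DNA were sequenced, along with 3 input libraries, the background against which capture is read. Messenger RNA was measured in 8 threat and 6 place libraries of 1 h, 6 threat and 5 place libraries of 24 h, and 9 naive libraries with no time given. Whether the replicates of a group are separate animals is not stated in the labels, so the p-values reflect the spread among libraries, part or all of which may be technical. Tissue was taken in bulk: a lower level can come from fewer cells of a type or from less per cell, and the 2 cannot be told apart. Of the CA1 pyramidal markers listed, 3 of the 4 present in the RNA data reached 1 FPKM (fragments per kilobase of transcript, scaled likewise), and markers of interneurons, glia and vessels were present too. So did 3 of 4 markers of CA2 and CA3 and 2 of 4 of dentate granule cells. Summed dentate granule markers ran from 2.22 to 29.5 FPKM in naive libraries and from 4.57 to 59.7 FPKM in threat libraries of 1 h. Captured libraries held 31.4 to 35.7 M reads in bins at 1 h and 42.2 to 58.5 M at 24 h, and inputs 37.2 to 39.9 M and 50.4 to 59.5 M; counting error does not cover duplicate reads from amplification.

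Methylation of DNA in mammals falls mostly on cytosines that are followed by guanine (CpG). A protein with a methyl-binding domain holds DNA that carries several methylated CpGs, so the reads recovered from a bin depend both on how many CpGs it has and on how many of them are methylated. In the genome at large, CpG-rich promoters of active genes are mostly free of methylation and gene bodies are methylated. The proteins encoded here set the electrical behaviour of neurons. Sodium and calcium channel alpha subunits form the pores that open on depolarization, potassium channels bring the membrane back to rest, HCN channels carry a current that opens on hyperpolarization, AMPA, kainate and NMDA receptors carry fast excitatory transmission, and GABA-A receptors carry fast inhibition.

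The promoter sequences of 6 genes are given as examples, 3 of genes with a captured start bin and 3 of genes without. They are the windows of 250 bases before to 50 after the gene start in RefSeq for the assembly GRCr8, with each CG written in capitals. Genes were matched to windows by Ensembl ID, or else by gene symbol or synonym. The bins themselves lie in the older build rn5 and were not aligned to these windows. The first 3 belong to genes whose start bin was captured at 1 h, with the largest excess over input at 24 h; the last 3 belong to genes whose start bin was not captured, with the highest mRNA level. Only genes with a window in the table and a span of at least 5 kb were taken, which leaves out genes with more mRNA than Scn2b such as Scn3b, and this choice was made after the values were seen.
Kcnk18, chr1:268360488-268360787, + strand: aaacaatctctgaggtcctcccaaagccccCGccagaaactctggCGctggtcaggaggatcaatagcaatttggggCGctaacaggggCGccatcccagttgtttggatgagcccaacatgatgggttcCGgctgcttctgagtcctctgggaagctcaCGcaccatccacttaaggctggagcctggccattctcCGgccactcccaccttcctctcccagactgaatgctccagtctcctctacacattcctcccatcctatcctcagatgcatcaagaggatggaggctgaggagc
Kcnv2, chr1:234412924-234413223, + strand: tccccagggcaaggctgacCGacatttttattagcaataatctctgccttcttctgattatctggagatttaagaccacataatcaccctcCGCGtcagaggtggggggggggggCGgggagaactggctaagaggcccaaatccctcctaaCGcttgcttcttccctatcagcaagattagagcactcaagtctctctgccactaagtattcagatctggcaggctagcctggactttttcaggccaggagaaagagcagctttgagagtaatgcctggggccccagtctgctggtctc
Scn10a, chr8:128340249-128340548, - strand: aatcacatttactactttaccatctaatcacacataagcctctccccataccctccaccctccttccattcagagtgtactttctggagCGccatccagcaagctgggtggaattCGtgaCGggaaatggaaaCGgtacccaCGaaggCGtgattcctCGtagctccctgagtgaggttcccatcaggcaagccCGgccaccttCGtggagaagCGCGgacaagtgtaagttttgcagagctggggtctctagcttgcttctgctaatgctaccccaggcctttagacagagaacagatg
Kcnab2, chr5:168270711-168271010, - strand: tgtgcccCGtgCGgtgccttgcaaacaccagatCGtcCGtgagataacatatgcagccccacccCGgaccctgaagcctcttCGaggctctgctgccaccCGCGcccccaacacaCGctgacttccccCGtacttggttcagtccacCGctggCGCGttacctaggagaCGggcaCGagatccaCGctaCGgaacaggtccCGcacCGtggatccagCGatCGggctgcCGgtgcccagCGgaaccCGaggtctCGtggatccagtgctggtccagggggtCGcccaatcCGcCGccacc
Grin1, chr3:28528705-28529004, - strand: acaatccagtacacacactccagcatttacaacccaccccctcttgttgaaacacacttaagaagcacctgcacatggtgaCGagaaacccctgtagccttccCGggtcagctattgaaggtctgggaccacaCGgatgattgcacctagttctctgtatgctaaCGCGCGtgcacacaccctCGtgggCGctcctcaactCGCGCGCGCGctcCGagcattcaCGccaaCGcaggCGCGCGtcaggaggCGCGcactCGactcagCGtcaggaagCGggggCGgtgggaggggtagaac
Scn2b, chr8:54322133-54322432, + strand: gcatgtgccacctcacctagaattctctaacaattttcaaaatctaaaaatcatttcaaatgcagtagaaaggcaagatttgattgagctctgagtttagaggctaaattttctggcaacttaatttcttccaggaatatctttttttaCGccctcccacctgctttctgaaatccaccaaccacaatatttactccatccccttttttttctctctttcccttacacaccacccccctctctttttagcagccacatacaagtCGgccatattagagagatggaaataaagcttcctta
The letters CG, which read the same on both strands, occur 7 times in the window of Kcnk18, 5 times in that of Kcnv2, 11 times in that of Scn10a, 28 times in that of Kcnab2, 25 times in that of Grin1 and 2 times in that of Scn2b. Of all 33469 promoter windows in the table, 94.5% hold at least 1 CG and 41.5% hold at least 10. A window was found for 113 of the 173 gene entries, which is too few for a comparison of CG content across the set, and none was made.

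Kcnk18 encodes a two-pore domain potassium channel known from sensory ganglia, and its mRNA was listed at 0 FPKM in all 9 naive libraries. Its start bin (rn5 chromosome 1, 287744001 to 287744500) held 0.910, 1.25 and 1.02 RPKM in the threat libraries of 24 h, 1.03, 0.797, 0.644 and 0.985 in the place libraries and 1.12, 1.02 and 1.02 in the naive libraries, against 0.270, 0.295 and 0.127 in the inputs. Every captured library stood above every input library. Scn10a, a sodium channel of sensory neurons, averaged 0.0136 ± 0.0130 FPKM (SD, n = 9 naive libraries). Its start bin (chromosome 8, 127619501 to 127620000) held 1.24, 1.31 and 1.42 RPKM in threat libraries of 24 h, 1.37, 0.797, 0.924 and 0.833 in place libraries and 0.901, 1.08 and 1.06 in naive libraries, against 0.300, 0.295 and 0.444 in inputs.

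Kcnab2, an accessory subunit of voltage-gated potassium channels, was at the other end. Its mRNA averaged 138 ± 28.3 FPKM in naive libraries (SD, n = 9). Its start bin (chromosome 5, 173212501 to 173213000), whose promoter window holds the most CGs of the 6, held 0, 0.0462 and 0 RPKM in threat libraries of 1 h, 0, 0.0920, 0 and 0 in place libraries and 0.0508, 0 and 0 in naive libraries, against 0.987, 0.783 and 0.681 in inputs. All 10 captured libraries of 1 h lay at or below the 0.134 to 0.152 RPKM that 3 reads amount to in them. Grin1, the NMDA receptor subunit shared by all NMDA receptors, had 81.1 ± 4.38 FPKM in naive libraries (SD, n = 9), and its start bin (chromosome 3, 2515501 to 2516000) averaged 0.0287 RPKM in the 10 captured libraries of 24 h against 0.238 in inputs. The start bin of Scn2b (chromosome 8, 48045001 to 48045500), whose window has only 2 CGs, averaged 0.0151 RPKM in captured libraries against 0.279 in inputs. Low capture thus stood beside a window rich in CG in 2 of these 3 genes and beside one poor in CG in the third.

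Across the set, start bins were low in captured DNA and the last bins of genes were high. Of 173 start bins, 19 were past the rule at 1 h (10.98%), as were 9.72% of the start bins of other genes. At 24 h, which did not enter the rule, 126 of the 173 start bins (72.8%) had less captured signal than input signal. In 85 the ratio of captured to input signal was under 0.25. In other genes 69.9% of start bins were below input, and 9741 of 22692 had a ratio under 0.25. Of all 41493 bins of the channel genes, 60.7% were below input and 5527 had a ratio under 0.25. The mean over the 173 start bins was 0.191 ± 0.00565 RPKM in threat libraries, 0.177 ± 0.00484 in place libraries and 0.180 ± 0.00309 in naive libraries of 24 h, against 0.225 ± 0.00208 in inputs (SD, n = 3, 4, 3 and 3). Each of the 10 captured libraries lay below each of the 3 inputs.

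The last bin of the gene, where transcription ends, was captured in 44 of 173 entries (25.4%), against 16.1% of end bins in other genes. At 24 h the mean over these 173 bins was 0.516 ± 0.0171 RPKM in threat libraries, 0.459 ± 0.0237 in place libraries and 0.449 ± 0.00468 in naive libraries, against 0.295 ± 0.00283 in inputs. Within each captured library of 24 h the end bins held 2.46 to 2.75 times the level of the start bins, while in the inputs this ratio was 1.31 in all 3 libraries. Other genes had the same order at 24 h. Their end bins averaged 0.390 RPKM and their start bins 0.233 in captured libraries, against 0.296 and 0.256 in inputs. Between the ends, the share captured was 9.88% in the first kilobase after the start bin, 12.4% from 5 to 20 kb and 5.39% beyond 100 kb; in other genes the same distances gave 9.37%, 10.9% and 7.15%.

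**Figure D1:**
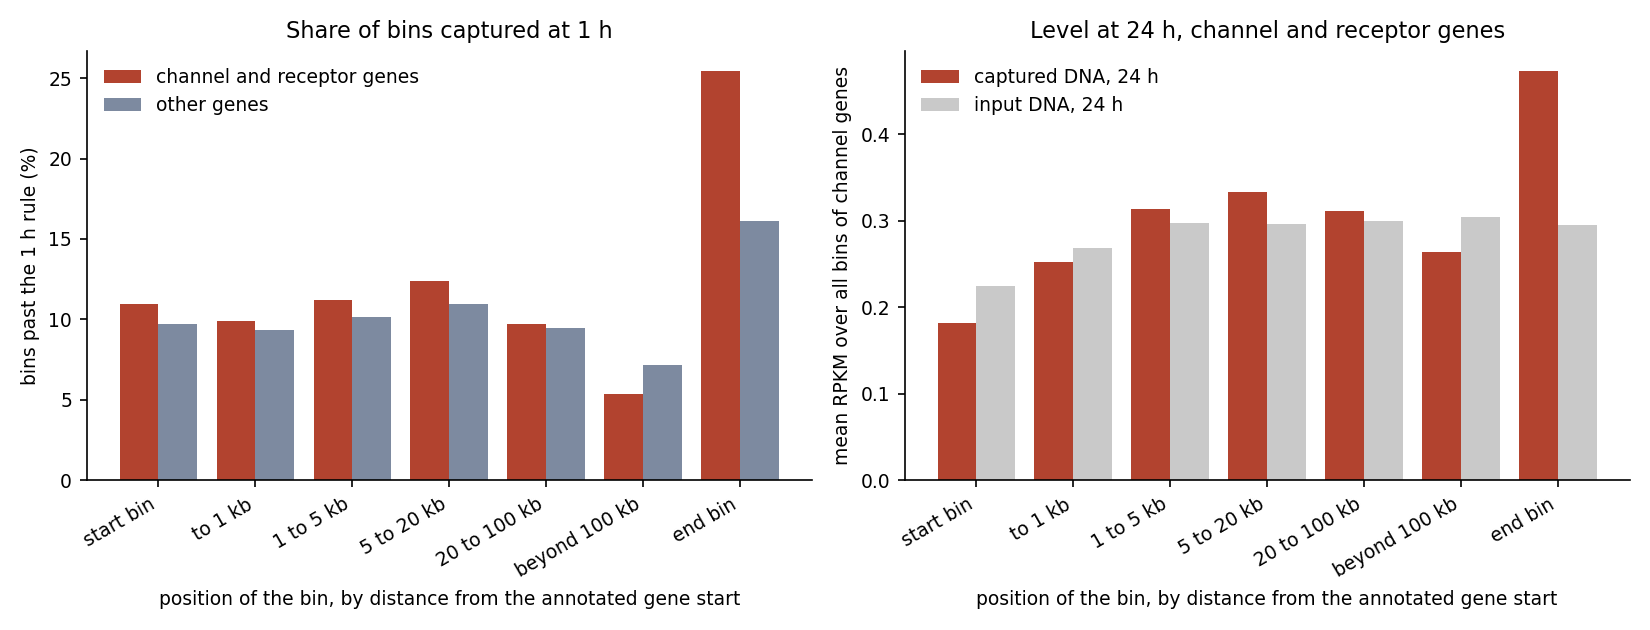
Bins by distance from the annotated start of the gene. Left, the percentage of bins past the 1 h rule in channel and receptor genes and in other genes; right, the mean RPKM at 24 h over all bins of the channel and receptor genes in captured and input libraries. End bins stand out at 25.4% and at 0.473 RPKM against 0.295 in input, and start bins lie below input at 0.182 against 0.225 RPKM.

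Among the 19 genes with a captured start bin were 6 of the 8 genes for calcium channel gamma subunits, several of which guide AMPA receptors to synapses (TARPs): Cacng1, Cacng2, Cacng5, Cacng6, Cacng7 and Cacng8. The others included potassium channel genes (Kcnd1, Kcnd2, Kcne2, Kcnj2, Kcnj11, Kcnk16, Kcnk18, Kcnmb3, Kcnn1 and Kcnv2), with Scn10a and Cacnb2. Their median naive mRNA level was 1.87 FPKM, against 6.26 FPKM for the 154 entries with a start bin that was not captured; in other genes the medians were 0.152 and 2.17 FPKM. At 24 h their start bins had a median of 0.634 RPKM in captured libraries and 0.244 in inputs, while the other 154 had a median of 0.0378 and 0.231.

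A captured start bin also occurred with high mRNA. Cacng7 and Cacng8 had 47.9 and 41.5 FPKM in naive libraries with captured start bins of 0.487 and 0.583 RPKM at 24 h, against inputs of 0.203 and 0.227. The annotated start need not be the start of transcription: Kcnj2, an inward rectifier, is annotated over only 1.28 kb, all 3 of its bins were captured, and its start bin held 1.02 RPKM at 24 h against 0.264 in input.

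**Figure D2:**
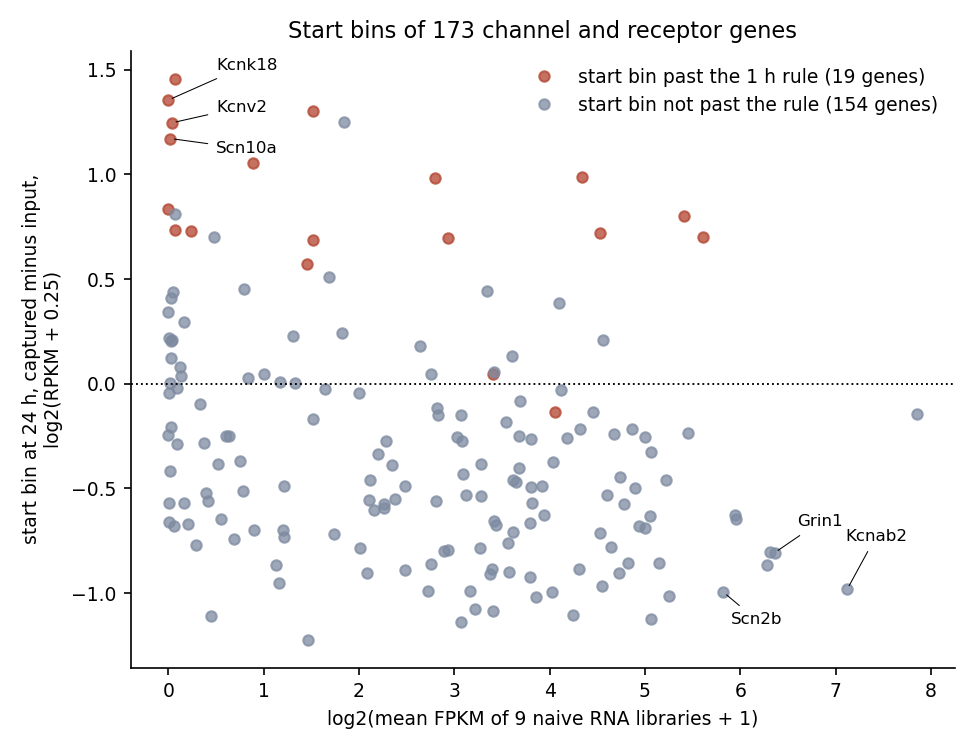
Start bins of the 173 channel and receptor gene entries at 24 h. The x axis is log2 of the mean FPKM of 9 naive RNA libraries plus 1 and the y axis is captured minus input on the log2(RPKM + 0.25) scale, 1 point per gene. Of the 173 points, 126 have less captured than input signal, and the 19 genes with a start bin past the 1 h rule are marked by colour.

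Capture was very uneven between the classes of channels. The sodium channel alpha subunits had 19.6% of their 1799 bins past the rule and the calcium channel alpha1 subunits 14.8% of 4125, whereas the AMPA receptor subunits had 1.34% of 2459 and the GABA-A receptor subunits 1.49% of 4022. The set as a whole had 7.69% of 41493 bins, against 9.22% of the bins of other genes. The same classes stood at the ends at 24 h when all bins of a class were averaged, with no choice by level. Sodium channel alpha subunits held 0.427 ± 0.0199 RPKM in captured libraries against 0.305 ± 0.00380 in inputs (SD, n = 10 and 3), a ratio of 1.4. Calcium channel alpha1 subunits held 0.374 ± 0.0173 against 0.291 ± 0.00384, a ratio of 1.29. In both classes all 10 captured libraries stood above all inputs.

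AMPA receptor subunits held 0.170 ± 0.00935 RPKM in captured libraries of 24 h against 0.275 ± 0.00276 in inputs, a ratio of 0.618. GABA-A receptor subunits held 0.187 ± 0.0106 against 0.296 ± 0.00275, a ratio of 0.631. Here all 10 captured libraries stood below all inputs, as they did for HCN channels (0.744), delta receptors (0.756) and the calcium- and sodium-activated potassium channels (0.685). Over all 41493 bins the ratio was 0.949, against 1.07 over the 1578088 bins that overlap other genes only. Voltage-gated potassium channel alpha subunits, the largest class with 41 entries, were near the set's mean at 0.953, and two-pore domain potassium channels (1.22), TARPs and other gamma subunits (1.16) and NMDA receptor subunits (1.05) were above input.

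**Figure D3:**
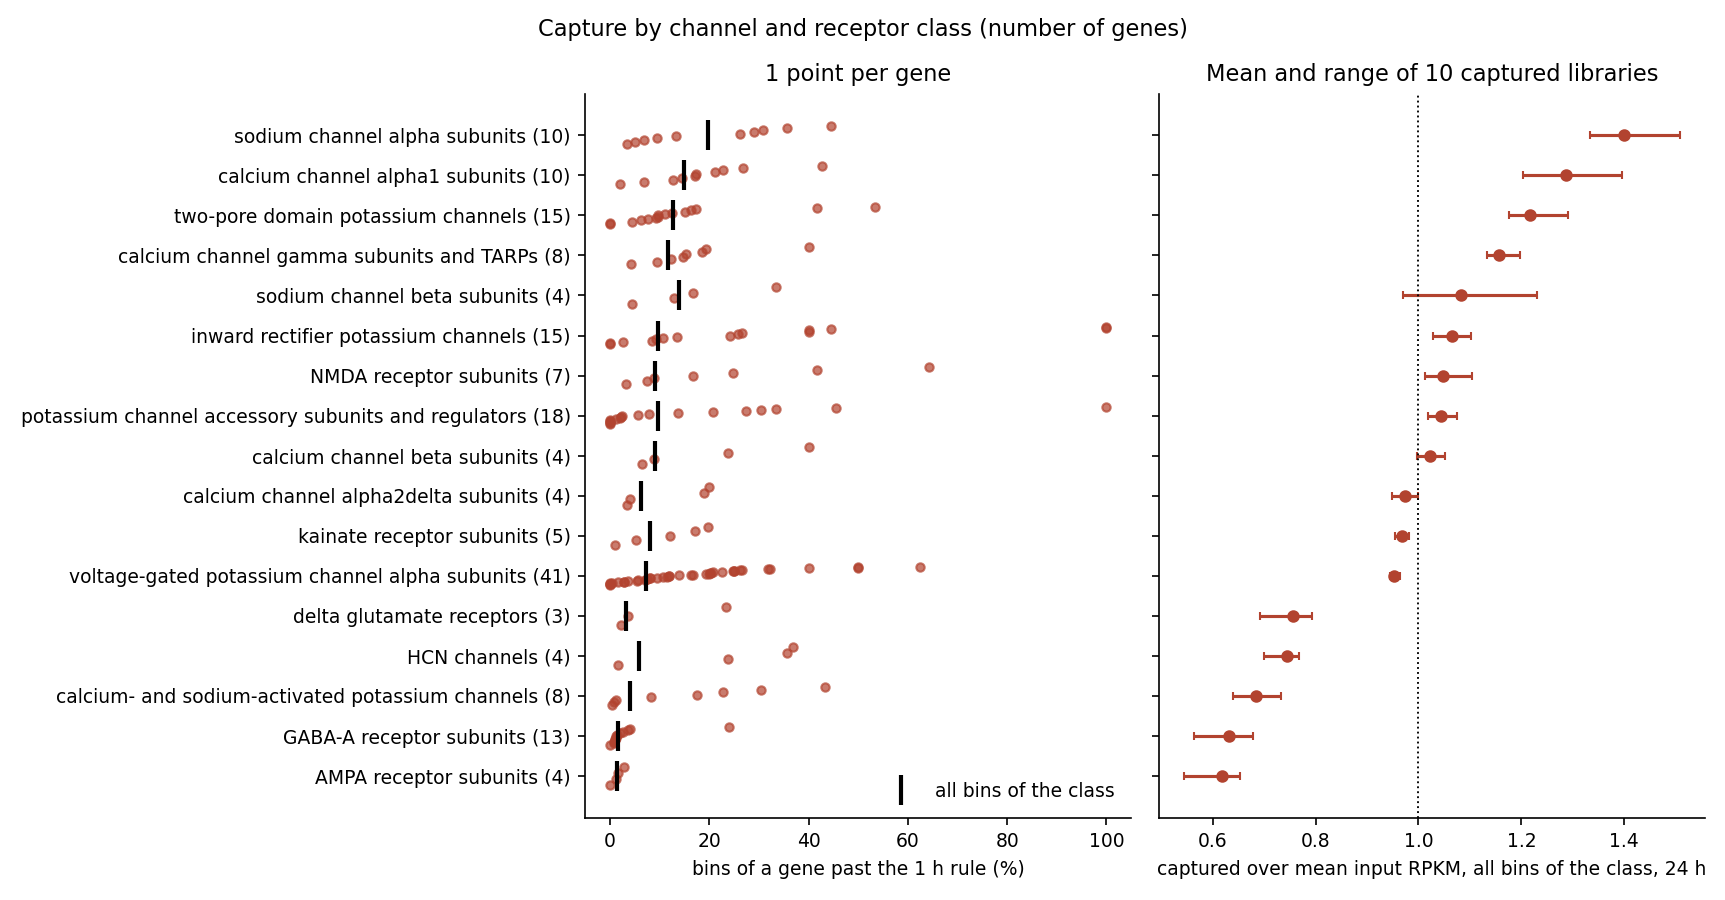
Capture in the 17 classes, ordered by the ratio at 24 h. Left, the percentage of bins past the 1 h rule in each gene (points) and over all bins of the class (black ticks); right, captured over mean input RPKM at 24 h over all bins of the class, with the range of 10 captured libraries. Sodium channel alpha and calcium channel alpha1 subunits stand highest at 1.4 and 1.29, AMPA and GABA-A receptor subunits lowest at 0.618 and 0.631.

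Over all 173 entries, the share captured had a Spearman correlation of -0.39 with the span of the gene and -0.18 with its naive mRNA level, given as a description across genes, which are not independent. Over the 22692 other genes both had the opposite sign, at 0.15 and 0.14. The values depend on which genes are kept: with only genes that hold a captured bin, where a short gene must have a high share, they were -0.67 and -0.31 in the 158 channel entries and -0.62 and -0.16 in other genes. AMPA receptor genes had a median span of 289 kb and GABA-A receptor genes 111 kb, against 84.5 kb for sodium channel alpha subunits. Kainate receptor genes, with a median span of 288 kb close to that of the AMPA receptor genes, had a ratio of 0.968 at 24 h. What part span has in the difference between classes was not tested. In absolute number 3 alpha1 genes led among calcium channels. Cacna1c and Cacna1d, which encode the L-type channels of neurons, had 180 and 157 captured bins, 14.5% and 26.7% of the gene; Cacna1a, the P/Q-type channel of presynaptic terminals, had 77.

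Among sodium channel alpha subunit genes the captured share ran from 3.40% to 44.6%. It was high in a pair that neighbour each other on chromosome 8 and are known from sensory neurons, but highest in a gene outside this pair. Scn11a had 50 of 140 bins past the rule (35.7%) and Scn10a 72 of 234 (30.8%), at means of 0.0111 and 0.0136 FPKM in naive CA1. Of the sodium channels with a high level in CA1, Scn8a (19.0 FPKM) had 26.1% and Scn2a1 (23.3 FPKM) 4.92%. A high mRNA level also stood beside a high share. Kcnab2, with next to no signal in its start bin, had 53 of 174 bins past the rule (30.5%).

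Among glutamate receptor genes, Grik3 had the most captured bins (85), followed by Grin2b (76) and Grik4 (70). NMDA receptor subunits ranged widely, with 64.3% in Grin3b, 41.7% in Grin2c, 8.74% in Grin2b and 3.10% in GRIN3A. Gria3 had none in 532 bins, and Gria4 had 12 in 1056. Among potassium channel genes Kcnh1 led with 74 bins, ahead of Kcnip1 (60) and Kcnab2 (53); Kcnj3 had none in 326 and Kcnq3 2 in 583. The HCN class as a whole had 5.82% of its 945 bins past the rule, although Hcn2, Hcn3 and Hcn4 had 36.8%, 35.7% and 23.7%. Of the GABA-A genes Gabrb1 had the most bins (10), and Gabrd, Gabrg1 and Gabrb2 had 6 each; Gabrd, the delta subunit of extrasynaptic receptors, had the highest share at 24.0%.

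The bins chosen at 1 h were also above input at 24 h. Of the 3189 bins, 2894 (90.7%) differed between captured and input libraries in limma with Benjamini-Hochberg adjustment over all 350378 bins, where 92.4% of all bins did, and 2892 of them were higher in captured libraries. The median difference was 0.83 on the log2(RPKM + 0.25) scale, against 0.89 over all bins. Levels were lower than at 1 h: the bins had a median of 0.736 RPKM in captured libraries of 24 h against 0.302 in inputs, and 1.72 against 0.497 at 1 h. Only 15.5% of them would pass the same rule at 24 h, against 17.5% of the bins in other genes. The bins were chosen by their level at 1 h, so part of this fall and of the low share is built into the choice. How much of it goes with time was not tested. Scaling by TMM in edgeR, which sets the average difference of the tested bins near 0, called 514 (16.1%), of which 174 were higher and 340 lower, against 16.9% of all bins, of which 26572 were higher and 32709 lower.

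The largest excess over input at 24 h, in 1 bin per gene, was in Cacnb4, Gria4, Kcnh1, Grin2b, Hcn4 and Kcnj5. The bin of Cacnb4, a calcium channel beta subunit (chromosome 3, 43116501 to 43117000, 74.5 kb from the start), held 2.87, 3.15 and 3.10 RPKM in threat libraries, 2.71, 2.69, 2.07 and 2.20 in place libraries and 2.84, 2.45 and 2.90 in naive libraries of 24 h, against 0.511, 0.698 and 0.349 in inputs (log2 difference 1.97 ± 0.13, SE; limma adjusted p = 3.54e-26). Threat libraries lay above place libraries, naive libraries overlapped both, and no captured library overlapped the inputs. The bin of Gria4 (chromosome 8, 1950501 to 1951000) averaged 2.85 RPKM against 0.572 in inputs (1.94 ± 0.13), and that of Hcn4, a pacemaker channel (chromosome 8, 63403501 to 63404000), 1.34 against 0.195 (1.85 ± 0.14). The Grin2b bin (chromosome 4, 233825501 to 233826000) lies near the end of the gene, 433 kb from its start, and averaged 1.48 RPKM against 0.222 (1.88 ± 0.15).

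Only 2 bins of the set were called lower than input at 24 h, where 0.0899% of all bins were. They adjoin each other in Kcnd2, which encodes an A-type potassium channel of dendrites, from 48181501 to 48182500 on chromosome 4, about 82 kb from the start. At 1 h the first of them held 1.11, 1.06 and 1.72 RPKM in threat libraries, 1.31, 0.782, 1.07 and 1.34 in place libraries and 1.22, 0.930 and 1.00 in naive libraries, against 0.129, 0.371 and 0.561 in inputs. At 24 h it held 0.0827, 0.233 and 0.0853 RPKM in threat libraries, 0.0559, 0.118, 0.364 and 0.0379 in place libraries and 0.0546, 0.0954 and 0.0377 in naive libraries, against 0.210, 0.429 and 0.317 in inputs (log2 difference -0.67 ± 0.18; limma adjusted p = 0.000451). Most of these captured values were at or below the level of 3 reads in their library, which was 0.0819 to 0.114 RPKM at 24 h. All 3 groups had the higher level at 1 h. The choice of bins asks for a high level at 1 h and, for these 2 bins, a low one at 24 h. This order was thus largely set in advance. The times also differ in library depth and in the inputs. Time after training, the choice of bins and these differences therefore cannot be told apart.

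The level rule itself cut through a continuous range. The channel bins nearest above it were in Kcnh3, GRIN3A and Grik1, at 1.000 to 1.001 RPKM at 1 h, and those nearest below it in Cacna2d3, Grik4 and Kcnk3, at 0.9993 to 0.9996. At the top, chosen after the values were seen, a bin of Scn4a, the sodium channel of skeletal muscle, averaged 24.2 RPKM in captured libraries of 1 h, but its inputs of 1 h were also high at 4.66; at 24 h the values were 1.34 and 0.294.

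Between groups, captured DNA in channel genes moved with captured DNA elsewhere. At 1 h the 3189 bins averaged 2.62, 2.57 and 2.27 RPKM in the 3 threat libraries, 2.25, 1.95, 2.11 and 2.49 in the 4 place libraries and 2.01, 2.11 and 2.22 in the 3 naive libraries, against 0.602, 0.566 and 0.571 in inputs. At 24 h they averaged 0.913, 0.855 and 0.823 RPKM in threat libraries, 0.787, 0.717, 0.666 and 0.694 in place libraries and 0.747, 0.738 and 0.691 in naive libraries, against 0.304, 0.306 and 0.312 in inputs. All threat libraries lay above all place and naive libraries at 24 h; at 1 h the threat and place ranges overlapped. The ratio of channel bins to bins of other genes hardly varied, at 1.04 ± 0.00664 in threat, 1.04 ± 0.00899 in place and 1.03 ± 0.00934 in naive libraries of 1 h and 0.963 ± 0.00157, 0.964 ± 0.0117 and 0.956 ± 0.00357 in those of 24 h.

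**Figure D4:**
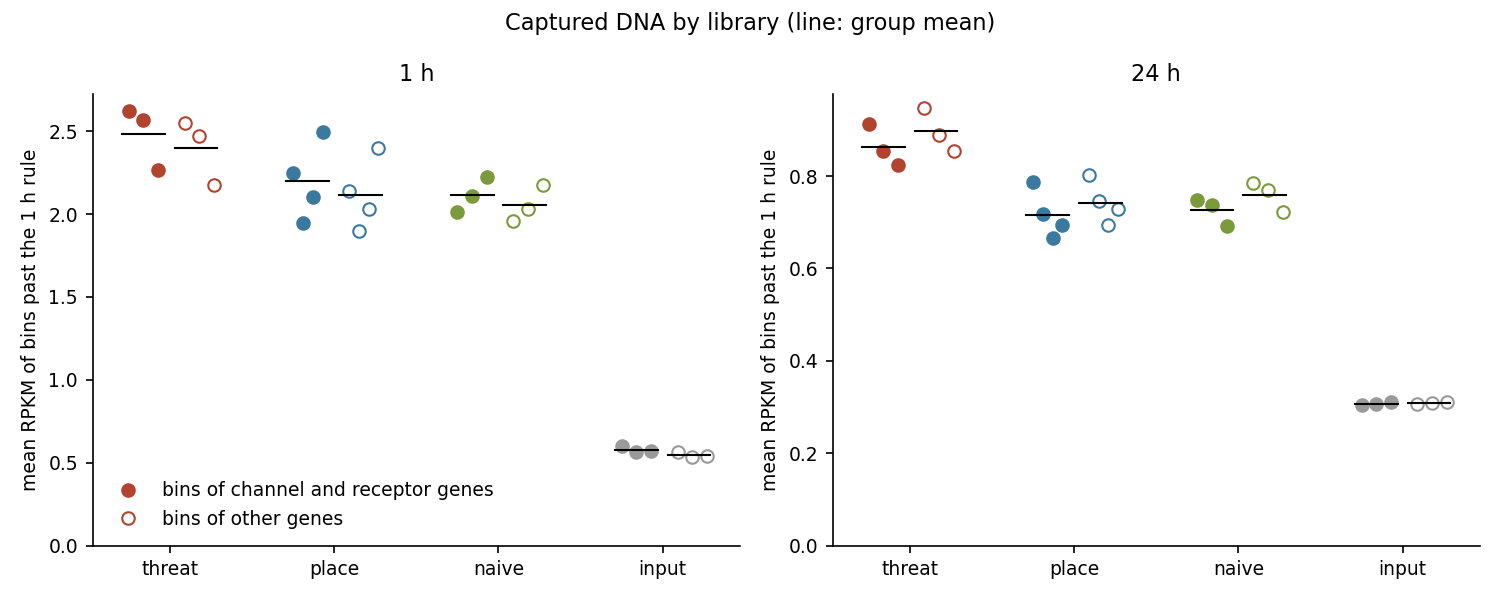
Mean RPKM of the bins past the 1 h rule in each library, for channel and receptor genes (filled) and other genes (open), at 1 h and 24 h, with the group means as lines. Threat libraries of 24 h lie at 0.823 to 0.913 RPKM in channel genes, above place (0.666 to 0.787) and naive (0.691 to 0.747) libraries, and the bins of other genes follow the same order.

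Bin by bin, threat against place at 24 h was the only comparison with calls in the set. There, 16 of 3189 bins in 14 genes were higher in threat and none was lower (limma, Benjamini-Hochberg adjusted p under 0.05 over all bins), where 0.603% of all bins were called higher and 0.00143% lower, against 0.502% of the channel bins called. The median difference was 0.20 in channel bins and 0.20 over all bins, and 86.0% of channel bins and 85.9% of all bins were higher in threat. With each library scaled to the median of all tested bins the medians were -0.00296 and 0.000743, 49.4% of channel bins were higher in threat, and no channel bin was called. No channel bin was called by edgeR with TMM either (158 at an unadjusted p under 0.05, and 170 after the median scaling, against 22341 and 22424 of all 350378 bins). The 16 bins are therefore higher in threat relative to sequencing depth and were not called relative to the other captured bins; the median difference of the 16 was 0.69 before the scaling and 0.49 after it.

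The count also rested on single libraries, and how many of all bins were called without each of them is not given here. It fell to 0 without place library 3 or threat library 2, to 1 without place library 4 or threat library 1, to 6 without place library 2 and to 10 without naive library 2, and it became 75 without place library 1 and 30 without naive library 3. Of the 16 bins, 3 lie in calcium channel alpha1 genes (Cacna1c, Cacna1e and Cacna1i), 3 in sodium channel alpha genes (2 adjoining bins of Scn8a, and Scn10a) and 2 adjoining bins in Grik1. The others are in Kcnq1, Kcng1, Kcng3, Kcnab1, Kcnab2, Kcnj5, Kcnk16 and Cacng7. Adjoining bins share DNA fragments and are not independent.

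The 4 largest differences, each named after the values were tested, were in Grik1, Kcnq1, Kcnk16 and Scn8a. In Grik1, a kainate receptor subunit, the bin at 31531501 to 31532000 on chromosome 11 held 0.689, 1.196 and 0.938 RPKM in threat libraries against 0.335, 0.472, 0.420 and 0.417 in place libraries of 24 h (log2 difference 0.83 ± 0.18, SE; limma adjusted p = 0.0275), with 0.410, 0.572 and 0.528 in naive libraries. Threat and place did not overlap, as in 508 of the 3189 channel bins (15.9%), against 17.4% of all bins past the level rule. After median scaling the difference was 0.63 (adjusted p = 0.580), and in edgeR 0.92 (0.451). In Kcnq1, a channel of heart and epithelia, the bin at 223480001 to 223480500 on chromosome 1 held 1.21, 1.31 and 1.31 RPKM in threat libraries against 0.727, 0.590, 0.672 and 0.568 in place libraries (0.78 ± 0.17; adjusted p = 0.0261), with 0.765, 0.668 and 0.942 in naive libraries. Its mRNA averaged 0.0404 FPKM in naive CA1.

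In Kcnk16, a two-pore channel, the bin at 8580501 to 8581000 on chromosome 15 held 1.68, 1.43 and 1.65 RPKM in threat libraries against 0.923, 0.561, 0.924 and 1.02 in place libraries (0.75 ± 0.17; adjusted p = 0.0292). Naive libraries held 1.23, 1.05 and 0.942, the lowest of them within the place range. In Scn8a, the sodium channel of the axon initial segment, the bin at 140484001 to 140484500 on chromosome 7 held 1.76, 1.28 and 1.39 RPKM in threat libraries against 1.15, 0.708, 0.728 and 0.606 in place libraries (0.74 ± 0.18; adjusted p = 0.0347), with 1.17, 1.14 and 0.641 in naive libraries. These 2 bins lost their calls under the median scaling (adjusted p = 0.580 and 0.583) and in edgeR (0.527 and 0.576), as did the Kcnq1 bin (0.558 after the scaling and 0.480 in edgeR).

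**Figure D5:**
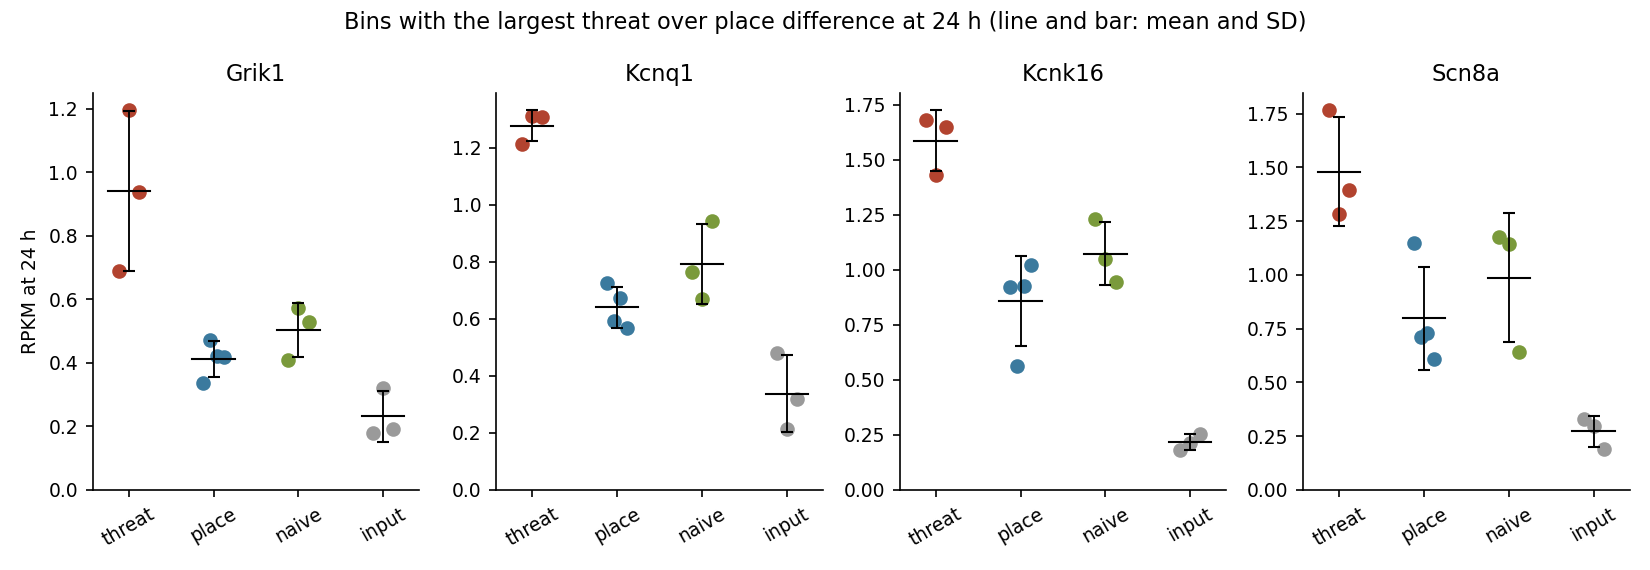
RPKM at 24 h in the 4 bins with the largest threat over place difference, by group, 1 point per library, with the mean and SD. In each bin the 3 threat libraries lie above the 4 place libraries, and the bins were chosen by this difference. Threat and place also lay apart in 15.9% of channel bins and 17.4% of all bins past the level rule.

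No bin of the set was called in the other comparisons of groups in limma. In threat against naive at 1 h, where 0.016% of all bins were called, 509 channel bins (16.0%) had an unadjusted p under 0.05, against 15.4% of all bins (265 channel bins in edgeR, which also called none), and the median difference was 0.19 against 0.17 over all bins. In threat against naive at 24 h (0.0237% of all bins called) there were 515 such bins (16.1%, against 15.1% of all bins), 175 in edgeR, with a median of 0.18 against 0.18. In threat against place at 1 h (0.0174%) there were 317 (9.94%, against 9.98% of all bins), 230 in edgeR, with a median of 0.14 against 0.13. Place against naive at 1 h, where 0.00285% of all bins were called, gave 123 (3.86%, against 3.34% of all bins; 144 in edgeR). At 24 h, where 0.00171% were called, it gave 160 (5.02%, against 4.80%; 164 in edgeR). The shares at an unadjusted p were thus near those of all captured bins. After median scaling the medians of the channel bins in these 5 comparisons ran from 0.00532 to 0.0145. The counts that follow leave out 1 library each, and how many of all bins were then called is not given here. Without threat library 3 of 1 h, 79 bins would be called in threat against naive at 1 h; without place library 4, naive library 3, naive library 1 or place library 2 there would be 4, 3, 1 and 1. Without place library 4 or threat library 3 of 1 h, 5 and 1 would be called in threat against place at 1 h, and without naive library 1 of 24 h, 8 in threat against naive at 24 h.

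Bins of NMDA receptor genes had the lowest p in threat against naive at 24 h and in place against naive at 1 h. In GRIN3A, a bin 136.5 kb from the start (chromosome 5, 69428001 to 69428500) held 1.27, 1.31 and 1.08 RPKM in threat libraries of 24 h against 0.573, 0.445 and 0.754 in naive libraries (0.82 ± 0.18; adjusted p = 0.0641), with 0.615, 0.738, 0.868 and 0.796 in place libraries. In Grin2b, a bin at 234141501 to 234142000 on chromosome 4 held 1.72, 1.70, 1.85 and 2.06 RPKM in place libraries of 1 h against 0.966, 0.930 and 1.00 in naive libraries (0.77 ± 0.18; adjusted p = 0.371), with threat libraries at 1.61, 1.57 and 1.43. Neither difference passed the threshold.

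The other bins with the lowest p were in Grid1 (threat against naive at 1 h, adjusted p = 0.0973), a second one in Grin2b (place against naive at 1 h, 0.991), Gabrg1 and Kcnip1 (threat against place at 1 h, 0.0985 and 0.391, the Kcnip1 bin being one whose mean passed the minimum only through its threat libraries), Kcnab2 (threat against naive at 24 h, 0.0797), and Kcnq5 and Kcnu1 (place against naive at 24 h, 0.724 and 0.971), all from limma and all past 0.05. The Kcnab2 bin lies at the end of the gene, 86 kb from its start, and held 1.27, 1.37 and 1.17 RPKM in threat libraries of 24 h and 1.09, 1.06, 0.812 and 0.909 in place libraries, against 0.710, 0.477 and 0.754 in naive libraries. The bin of Kcnq5, a channel of the M-current family, held 0.615, 0.649, 0.504 and 0.417 RPKM in place libraries of 24 h, against 1.04, 0.858 and 1.13 in naive libraries (-0.66 ± 0.17).

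With 1 value per gene, the mean over its captured bins, 32 of 158 genes were higher in threat than in place at 24 h and none was lower in limma, where 16.7% of all 15225 genes were called higher and 0.00657% lower. The lowest p were those of Kcnj16, Kcnk16 and Cacng7. Kcnj16, an inward rectifier subunit, held 1.87, 1.71 and 1.53 RPKM in threat libraries, against 1.16, 1.14, 1.18 and 1.08 in place libraries, and 1.06, 1.32 and 1.06 in naive libraries (log2 difference of threat and place 0.49 ± 0.09; adjusted p = 0.0427). It is annotated over 5 bins, 2 of which were captured. Kcnk16 had 1.09, 1.09 and 1.04 RPKM in threat libraries against 0.8003, 0.638, 0.651 and 0.805 in place libraries (0.44 ± 0.09; 0.0427), and Cacng7 0.893, 0.927 and 0.949 against 0.682, 0.756, 0.599 and 0.629 (0.36 ± 0.08; 0.0427). Median scaling left no gene called and reduced these differences to 0.29, 0.24 and 0.16. At an unadjusted p under 0.05 it left 9 of the 158 channel genes, against 994 of all 15225 genes.

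The count of 32 genes fell to 0 without any 1 of naive libraries 1 and 2, place libraries 2, 3 and 4 and threat libraries 1 and 2, was 19 without threat library 3 and was 91 without place library 1. In the other 5 gene comparisons no channel gene was called by limma, and none of the 15225 genes was. At an unadjusted p under 0.05 there were 37 of the 158 in threat against naive at 1 h, 13 in threat against place at 1 h, 76 in threat against naive at 24 h, 3 in place against naive at 24 h and 0 in place against naive at 1 h. Over all 15225 genes the shares in the same order were 20.7%, 12.8%, 33.9%, 4.35% and 2.01%, against 23.4%, 8.23%, 48.1%, 1.90% and 0% of the channel genes. After median scaling the channel counts were 6, 9, 10, 7 and 6 of 158, against 1363, 1039, 939, 837 and 685 of all 15225 genes. Gabrg3, a GABA-A subunit with 4 captured bins, had the lowest p in threat against naive at 1 h, at 2.15, 2.10 and 1.94 RPKM in threat libraries against 1.35, 1.52 and 1.48 in naive libraries (0.45 ± 0.12; adjusted p = 0.212). Without threat library 3, 4 genes would be called there. The counts over all genes without single libraries are not given here.

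The difference between groups did not differ between the times in any bin of the set at the threshold. In limma over all 20 captured libraries no channel bin was called for the change of threat against naive, of place against naive or of threat against place between 24 h and 1 h, where 0.00257%, 0.000856% and 0.000856% of all bins were called; 153, 141 and 175 had an unadjusted p under 0.05 (4.80%, 4.42% and 5.49%, against 5.30%, 4.38% and 5.47% of all bins). This test was not run with edgeR. The 2 times share no library. Over the 3189 bins the difference of threat and naive at 24 h had a Pearson correlation of 0.058 with that at 1 h, and that of threat and place 0.055, as a description across bins; the sign was shared by 70.4% and 69.8% of bins, and most captured bins of the genome were higher in threat at both times.

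The mRNA of the same genes was measured in separate libraries. Summed choroid plexus markers reached 6350 FPKM in 1 threat library of 1 h; at 24 h they ran from 4.95 to 75.9 FPKM in threat, 3.44 to 167 in place and 4.41 to 264 in naive libraries. Summed oligodendrocyte markers ran from 1408 to 2552 FPKM in threat and 1684 to 3491 in place libraries of 24 h, against 1991 to 2982 in naive libraries, and the part of these cell types in the results below was not tested. Of the 173 entries 127 passed the filter of 1 FPKM in at least 5 libraries and were tested among 13153 genes. At 24 h, 7 were called in threat against naive and 2 in place against naive by limma, where 10.1% and 5.05% of all genes were called. Kcnt1, a sodium-activated potassium channel, was lower in both: threat libraries of 24 h ran from 4.04 over a median of 4.83 to 5.58 FPKM and place libraries from 3.82 over 4.44 to 5.38, against 5.78, 6.98 and 11.7 for the lowest, median and highest naive library (-0.56 ± 0.12 on the log2(FPKM + 1) scale in threat, adjusted p = 0.00344; -0.65 ± 0.13 in place, 0.00386). Neither group overlapped naive. Kcnk4, a mechanosensitive two-pore channel, was lower in both as well (-0.78 ± 0.20 in threat, limma adjusted p = 0.00996; -0.85 ± 0.21 in place, 0.0146). Its lowest, median and highest values were 4.49, 4.97 and 9.01 FPKM in threat and 3.76, 4.999 and 7.77 in place libraries of 24 h, against 5.20, 9.97 and 19.7 in naive libraries, so the groups overlapped.

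Against naive in threat but not in place, Kcnj8 (-0.22 ± 0.07, 0.0391), Kcnh4 (-0.33 ± 0.11, 0.0424) and Grin2c (-0.31 ± 0.10, 0.0492) were called lower and GRIN3A (0.50 ± 0.12, 0.00853) and Scn2b (0.34 ± 0.10, 0.0345) higher than in naive libraries, but no channel gene was called in threat against place at 24 h (limma; 1 of 127 at an unadjusted p under 0.05, against 2.90% of all genes; 0% of all genes were called), so a difference between the 2 groups was not shown; Kcnh4 and Grin2c are named after their values were seen. Scn2b, a sodium channel beta subunit, ran from 63.7 over a median of 69.9 to 74.5 FPKM in threat libraries, against 38.6, 56.1 and 68.1 in naive libraries. GRIN3A, an NMDA receptor subunit, ran from 2.39 over a median of 3.22 to 4.67 FPKM in threat libraries of 24 h, against 1.38, 2.21 and 3.59 in naive libraries. Kcnj8, a subunit of ATP-sensitive potassium channels, ran from 0.723 over 0.928 to 1.11 FPKM in threat libraries, against 0.869, 1.22 and 1.62 in naive libraries. In captured DNA the mean of the 6 Kcnj8 bins at 24 h was 1.19, 1.12 and 0.985 RPKM in threat and 0.969, 0.792, 0.836 and 0.751 in place libraries, against 0.769, 0.805 and 0.754 in naive libraries (threat and naive, 0.39 ± 0.09 on the log2(RPKM + 0.25) scale; limma adjusted p = 0.103), which did not pass the threshold. All these calls depended on which naive libraries were used. The shares of all genes called against each part of the naive libraries are not given here. Against naive libraries 5 to 9 alone none of the genes was called at 24 h, and against libraries 1 to 4 alone 29 were in threat and 18 in place; at 1 h 13 were called in threat and 7 in place against libraries 5 to 9 alone. For Kcnt1 in threat the difference was -0.35 against libraries 5 to 9 (adjusted p = 0.231) and -0.83 against libraries 1 to 4. The table gives the naive columns in these 2 blocks, 5 to 9 before 1 to 4; they are no labelled batch, and what sets them apart was not tested. Single libraries moved the count in threat between 3 (without naive library 2, 3 or 4, or threat library 1 or 5) and 13 (without naive library 6), with 4 left without threat library 2, 4 or 6, and the count in place between 1 (without place library 2 or 3) and 5 (without naive library 6), with 4 without naive library 5 or place library 4.

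At 1 h no channel gene was called in mRNA by limma, where 0.928% of all genes were called in threat against naive, 0.129% in place against naive and 0% in threat against place. At an unadjusted p under 0.05 there were 9 of 127 channel genes (7.09%) in threat against naive, against 16.1% of all genes, 9 (7.09%) in place against naive, against 9.76%, and 3 (2.36%) in threat against place, against 4.26%. Without naive library 4, 4 would be called in threat against naive, and 1 without naive library 1 or 6. Leaving out any 1 threat library of 1 h kept that count at 0.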

How the data were processed

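Methylated DNA was captured with a methyl-binding domain protein and sequenced (MBD-seq), and polyadenylated RNA was sequenced separately. The authors deposited the MBD-seq values as RPKM, a coverage signal per bin of 500 nt, and the RNA values as FPKM per gene. Per the submitters' processing notes TopHat 1.4.0, Bowtie, DESeq2 and edgeR were used, with builds mm10 and rn5 named without their roles. The deposited tables carry a mouse build in their titles, but the bins of chromosome 1 run to 290094000, and positions are given here in rn5. Of 5805223 bins, 21 short ones were left out.

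The members, gene classes and lists were chosen with earlier results of these data known, and the classes were edited after the files were read so that every entry fell in one. Some members are not reported here by name. Symbols were matched ignoring case to voltage-gated and other potassium channels, sodium channels, calcium channel alpha, beta and gamma subunits, HCN channels, ionotropic glutamate receptors and GABA-A subunits. Per time, log2(RPKM + 0.25) of the 10 captured libraries was fitted with limma 3.58.1 in R 4.3.3 with 3 group means, with Benjamini-Hochberg adjustment over the 350378 bins past the level rule or over 15225 genes. Captured and input libraries of 24 h, and the change between times over 20 libraries, were fitted likewise. RNA was fitted as log2(FPKM + 1) over 34 libraries and 13153 genes that reached 1 FPKM in 5 or more libraries. The threshold was an adjusted p of 0.05.

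The deposited RPKM values were whole multiples of 1 read in 100% of values within 0.1 reads, so read numbers were recovered and tested with edgeR 4.0.16 (quasi-likelihood, TMM) as an alternative. The depth behind the FPKM values is not known. On simulated reads for 20000 bins with 200 changed, limma recovered 93% of them at 1 h and 88% at 24 h, and edgeR 92.5% and 87.5%. The changed bins were taken only from those with more reads, and the changes set were larger than most group differences seen here. These shares therefore do not measure how often differences of the size seen in the set would be called. Tables and plots used Python 3.11.15, pandas 2.3.3, numpy 2.4.6, scipy 1.17.1 and matplotlib 3.10.9.

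Named items were all called bins up to 8 per comparison or else the 4 largest in each direction, with none the 2 lowest p; the 3 genes with the most bins per family; the 6 bins furthest over input at 24 h, 1 per gene; the 3 bins on each side of the level threshold; the 3 genes with the lowest p per comparison; and up to 5 called genes per RNA comparison. Start bins, promoters and other items outside this rule were chosen after values were seen. The 173 gene entries hold 170 symbols, since some symbols have more than 1 entry.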

Additional observations from a re-analysis of the deposited data

Results flagged for a closer look

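In 4 of 63 groups of 4 to 10 libraries that were checked for the named bins and genes, the highest or lowest library stood apart from the others; chance alone flags about 1 group in 20. In Grin2b, the bin that starts at 234111001 held 1.84 RPKM in place library 4 of 1 h, where the next place library held 1.43. GRIN3A had 3.59 FPKM in 1 naive library and 2.46 FPKM in the next. Kcnk4 had 9.01 FPKM in 1 threat library of 24 h and 5.99 FPKM in the next. Scn2b was low in 1 place library of 24 h, at 51.0 FPKM, where the next had 66.3 FPKM.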

How the results depend on the processing

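Counts of called channel bins in threat against place at 24 h (16) depended most on the processing: 36 with a pseudocount of 1, 0 with median scaling, 40 with the replicate block, 5 with no input criterion, 37 in the bins that pass the rule at 24 h, and 0 in edgeR. The 2894 bins called against input at 24 h became 1168 with a level minimum of 2 RPKM and 541 in bins that pass the rule at 24 h, both over fewer bins, and 514 in edgeR. Threat against naive at 1 h (0) gave 1 with a pseudocount of 1 and 3 with the replicate block; at 24 h (0) it gave 1 with a pseudocount of 1, 20 with the block and 1 in bins that pass at 24 h; threat against place at 1 h (0) gave 3 with the block. The 32 genes of threat against place at 24 h became 0 with median scaling and 56 with the block. In mRNA, naive libraries 5 to 9 alone gave 13 calls in threat and 7 in place at 1 h and 0 in both at 24 h; libraries 1 to 4 alone gave 29 in threat and 18 in place at 24 h, and no filter gave 4 in threat at 24 h. Leaving out single libraries, the bin counts ran from 0 to 79 in threat against naive and 0 to 5 in threat against place at 1 h, and from 0 to 8 and 0 to 75 at 24 h; the gene counts ran from 0 to 4 in threat against naive at 1 h and 0 to 91 in threat against place at 24 h; the mRNA counts ran from 0 to 4 in threat against naive at 1 h, 3 to 13 at 24 h, and 1 to 5 in place against naive at 24 h. Apart from the settings whose own construction changes the bins or libraries used, the cause was not tested. The counts over all bins or genes in these settings are mostly not given here. The channel counts therefore cannot show a change particular to channel genes. Replicate numbers did not pair the libraries: same-numbered captured libraries had correlations of -0.142 to 0.038 at 1 h and -0.0062 to 0.0337 at 24 h. In RNA, 17 of 58 same-numbered pairs were over 0.1, and so were 117 of 399 differently numbered pairs. In all, 330 counts stayed within 1.5 times the reported one and 67 did not; of the values of named bins and genes 605 kept their side of the threshold, 77 lost it and 17 gained it, and none changed direction. The floor of 3 reads, 0.134 to 0.152 RPKM at 1 h and 0.0819 to 0.114 RPKM at 24 h, limits what can be read from start bins and from the first of the Kcnd2 bins called lower than input.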
